A study of Mus musculus with 6 samples.

Results

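The epidermal differentiation complex is a cluster of genes whose products build and guard the outer layer of skin. Its members were taken from the deposited counts by gene symbol: every symbol starting with Sprr, Lce or S100a, and Flg2, Hrnr, Rptn, Tchh, Tchhl1, Crnn, Ivl, Lor, Crct1, Pglyrp3 and Pglyrp4. That gave 61 of 24453 symbols. All 61 lie on mouse chromosome 3, within 3.054 Mb at chr3:90511034-93564643 (GENCODE M21 annotation of GRCm38). Filaggrin (Flg) is not analysed here.

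Gene expression was read by RNA sequencing of epidermal cells taken from back skin of mice at postnatal day 0. The sort was for EpCAM, Sca1 and a high level of α6-integrin, a gate for progenitor-rich interfollicular epidermis. The tested libraries carry the genotype label Ring1a-/- Ring1b-/- (3 libraries, K1, K2 and K3 for replicates 1 to 3), and the other 3 carry the genotype label Control (C1, C2 and C3). Ring1a and Ring1b are the ubiquitin ligases of Polycomb repressive complex 1, which marks histone H2A and holds developmental genes silent. The labels do not give what the Control genotype holds, how or in which cells the alleles were deleted, or whether each library came from its own animal. P-values therefore measure only the spread between these libraries, which may be technical.

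Total counts ran from 18951665 to 31187270 per library, so that 3 counts, the most that a count of 0 allows, stand for 0.0974 to 0.154 CPM. CPM are read counts scaled to a common library size, here with TMM factors. The gene Ring1 had 1.66, 5.20 and 14.2 CPM in K1, K2 and K3, against 30.9, 17.1 and 3.90 CPM in C1, C2 and C3, so replicate 3 of each group goes against its label. Groups are accordingly named by their labels, as knockout-labelled and control-labelled libraries. Ring1b (Rnf2) had a log2 fold change of 0.21 (adjusted p = 0.576, edgeR), and since the deleted part is not given they check no label. The transcript Xist of the inactive X chromosome was high in K1, K2 and C3. The Y-linked gene Ddx3y was low in K1 (0.0346 CPM) and K2 (0.206 CPM). K3 reached 76 CPM of Ddx3y, C1 91.1, C2 102 and C3 59.7 CPM. Only C3 was high in both genes, with Xist at 1756 CPM. High Xist with low Ddx3y was thus seen only under the knockout label, so these sex markers were not balanced between the groups. Apart from a fit with the Xist level as covariate, the part of sex was not tested. On the first principal component of the tested genes (56.7% of the variance) the labelled groups lay apart. K1, K2 and K3 stood at -93.5, -68.4 and -57.8, and C1, C2 and C3 at 84.6, 64.0 and 71.0. On the second (18.5%), K1 and C1 (62.7 and 55.3) stood apart from the other libraries.

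A keratinocyte leaving the basal layer first makes keratins and desmosomes, then builds a cornified envelope under its membrane. Involucrin (Ivl) and the small proline-rich proteins (Sprr) are early envelope material that transglutaminases join by cross-links, and loricrin (Lor) and the late cornified envelope proteins (Lce) strengthen it later. The fused-type S100 proteins, among them hornerin (Hrnr), repetin (Rptn) and trichohyalin (Tchh), are long repeat proteins of the granular layer and hair sheath. The S100a genes encode small calcium-binding proteins, and Pglyrp3 and Pglyrp4 encode secreted proteins that bind bacterial peptidoglycan. Several Sprr and S100a genes are known for a rise in wounded or inflamed skin.

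Promoter sequences are shown for 4 Sprr genes that rose, together with S100a6, which rose as well, and Lce1c, an Lce gene that was not called. Each is the 250 bases before the RefSeq start on GRCm38.p6, read 5′ to 3′ on the gene's own strand, from chr3:92485882-92486131 (minus) for Sprr1a, chr3:92438780-92439029 (minus) for Sprr1b, chr3:92385435-92385684 (plus) for Sprr2h, chr3:92407741-92407990 (plus) for Sprr2i, chr3:90612644-90612893 (plus) for S100a6 and chr3:92678997-92679246 (plus) for Lce1c. Capitals mark matches on either strand to the AP-1 motif TGANTCA and to the TATA box TATAAA, with N for any base.
Sprr1a: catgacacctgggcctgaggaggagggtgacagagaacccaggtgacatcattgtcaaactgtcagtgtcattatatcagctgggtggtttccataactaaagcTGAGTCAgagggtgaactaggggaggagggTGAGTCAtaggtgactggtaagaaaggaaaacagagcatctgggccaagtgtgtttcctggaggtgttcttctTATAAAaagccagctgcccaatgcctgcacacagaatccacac
Sprr1b: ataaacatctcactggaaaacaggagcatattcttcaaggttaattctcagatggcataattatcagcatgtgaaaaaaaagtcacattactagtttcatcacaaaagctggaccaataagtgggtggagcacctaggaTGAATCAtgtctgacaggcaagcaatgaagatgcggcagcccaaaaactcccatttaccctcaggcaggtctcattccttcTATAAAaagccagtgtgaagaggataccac
Sprr2h: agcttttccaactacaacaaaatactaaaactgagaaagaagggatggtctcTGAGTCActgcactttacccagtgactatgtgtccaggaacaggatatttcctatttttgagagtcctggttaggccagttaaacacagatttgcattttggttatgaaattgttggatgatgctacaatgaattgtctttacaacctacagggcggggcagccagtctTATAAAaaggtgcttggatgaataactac
Sprr2i: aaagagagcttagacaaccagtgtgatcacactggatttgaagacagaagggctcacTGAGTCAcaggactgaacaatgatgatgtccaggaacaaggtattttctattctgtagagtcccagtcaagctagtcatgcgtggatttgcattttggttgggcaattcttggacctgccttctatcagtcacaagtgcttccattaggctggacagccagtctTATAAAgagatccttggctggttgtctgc
S100a6: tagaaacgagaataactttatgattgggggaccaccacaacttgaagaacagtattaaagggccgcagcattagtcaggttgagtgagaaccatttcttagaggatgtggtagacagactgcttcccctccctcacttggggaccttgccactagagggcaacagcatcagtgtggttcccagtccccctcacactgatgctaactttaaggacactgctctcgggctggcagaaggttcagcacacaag
Lce1c: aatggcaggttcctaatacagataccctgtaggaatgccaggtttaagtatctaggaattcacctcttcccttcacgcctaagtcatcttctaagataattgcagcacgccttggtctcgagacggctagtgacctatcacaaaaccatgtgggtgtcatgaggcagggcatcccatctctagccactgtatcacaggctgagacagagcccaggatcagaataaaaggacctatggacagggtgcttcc
The Sprr promoters shown each hold an AP-1 match, and Sprr1a holds 2, which begin 146 and 116 bases before the start. Their TATA boxes begin 29 to 43 bases before it. The S100a6 and Lce1c windows hold neither word. Searches for AACNNGTT (Grainyhead) and CCACNCCC (KLF) found no match in these windows, and TTGCNNAA (C/EBP) matched once, in Sprr2i, where it is not in capitals.

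Of the 61 members, 59 had a count in some library and 45 passed the filter on low counts. Tested over all genes, 8 of the 45 were higher in the knockout-labelled libraries (17.8%), against 7.17% of the 14890 genes tested (edgeR quasi-likelihood test, Benjamini-Hochberg adjusted p under 0.05). They were S100a6, S100a9, S100a10, Pglyrp3, Sprr1a, Sprr1b, Sprr2h and Sprr2i. One, Pglyrp4, was lower (2.22% of the 45, against 2.98% of all genes tested). Either way, 9 members were called, and 10.2% of all genes tested. Among the tested members, 11 had every knockout-labelled library above every control-labelled one (24.4%, against 17.6% of all genes tested), and 1 had every one below (14.8% of all genes tested). The median log2 fold change of the 45 was 1.03, beside 4e-04 over all genes tested. Some members of low level, such as Sprr2h and Sprr2i, passed the count filter only through the knockout-labelled libraries, so these counts and medians, here and for each family, describe the tested members and support nothing about all 61. In bulk RNA, fewer cells of a type and less RNA per cell cannot be told apart.

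The count of 8 higher members rested on single libraries. It was 3 without K2, 3 without C1, 3 without C3, 6 without K3 or without C2, and 13 without K1. With replicates 1 and 2 alone, where Ring1 goes with the labels, it was 3, and with replicates 2 and 3 alone it was 18. Testing by limma-voom gave 5, and the Xist level as covariate left 3. S100a6, Sprr1a and Pglyrp4 kept their calls in all 18 alternatives.

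**Figure D1:**
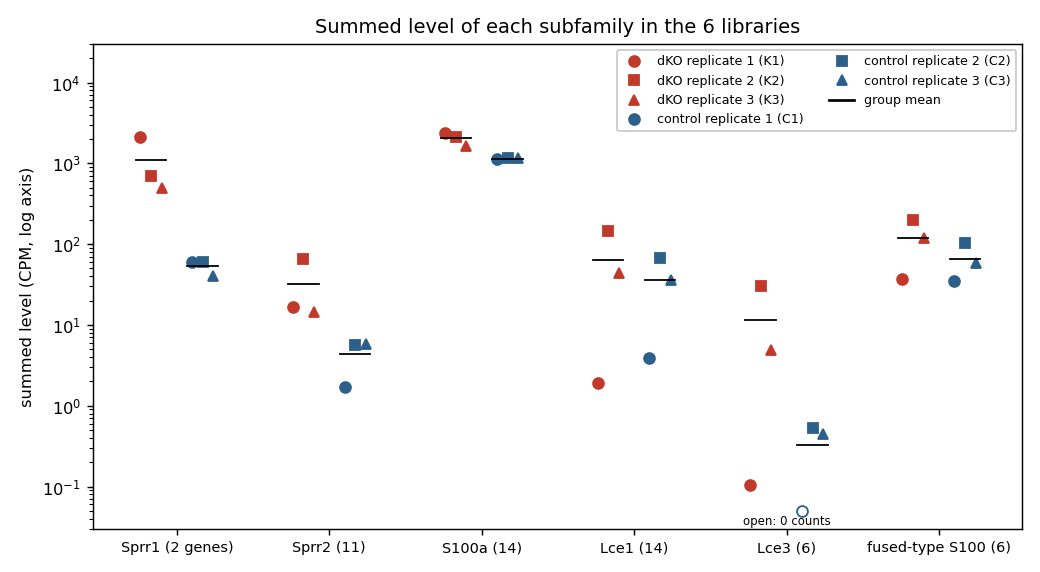
Summed level of each subfamily in CPM (log axis) in the 3 knockout-labelled (red) and 3 control-labelled (blue) libraries, with one point per library (an open point at the foot stands for 0 counts) and a line at the group mean. The Sprr1, Sprr2 and S100a sums of the groups do not overlap, whereas the Lce1, Lce3 and fused-type S100 sums do, with K1 and C1 lowest in the last 3 sets.

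The S100a genes had the highest summed level of the families in every library. Their summed level was 2382, 2131 and 1661 CPM in K1, K2 and K3, against 1119, 1162 and 1154 CPM in C1, C2 and C3. Every knockout-labelled sum lay above every control-labelled one, a ratio of means of 1.80. Of 14 genes 11 were tested, and 3 of the 11 rose, against 7.17% of all genes tested. The remaining 8 had log2 fold changes of 0.06 to 1.48 with edgeR adjusted p of 0.307 to 0.977. S100a2, S100a5 and S100a7a were at or near 0 in every library. Without K1, K2, C1, C2 or C3 the S100a calls came down to 1, S100a6.

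S100a6 (ENSMUSG00000001025, plus strand, chr3:90612882-90624181) encodes calcyclin, a calcium sensor of dividing and migrating cells. Its level was 371, 663 and 465 CPM in K1, K2 and K3, against 37.3, 103 and 99.5 CPM in C1, C2 and C3. The lowest knockout-labelled library thus lay well above the highest control-labelled one. The log2 fold change was 2.65 ± 0.40 (SE, n = 3 libraries a group), a 6.26-fold rise (edgeR adjusted p = 0.00486).

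S100a10 encodes the partner of annexin A2. It had 490, 366 and 291 CPM in K1, K2 and K3, against 123, 220 and 218 CPM in C1, C2 and C3. The groups did not overlap, but the gap between K3 and C2 was small beside the spread within the groups. The log2 fold change of 1.03 ± 0.28 (SE) was called (edgeR adjusted p = 0.0492), and leaving out any one of the 6 libraries ended the call (edgeR adjusted p of 0.0525 to 0.112). Its partner gene Anxa2 had a log2 fold change of 0.37 (edgeR adjusted p = 0.295). S100a11, which pairs with annexin A1, had 1075, 667 and 534 CPM in K1, K2 and K3, against 727, 483 and 454 CPM in C1, C2 and C3, with overlapping groups (log2 fold change 0.45 ± 0.29, SE; adjusted p = 0.391, edgeR). Its reads cannot all be placed, since 34% of the 100-base windows of its exons also occur in other genes, here pseudogenes.

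S100a14, an epithelial family member, had 328, 282 and 222 CPM in K1, K2 and K3, against 156, 232 and 238 CPM in C1, C2 and C3. K3 lay below C2 and C3, and the log2 fold change of 0.41 ± 0.22 (SE) was not called (edgeR adjusted p = 0.307). Scaled by exon length, S100a11 had the highest mean of all 61 genes in both groups, 1485 CPM per kb in knockout-labelled and 1086 CPM per kb in control-labelled libraries. Sprr1a followed in the knockout-labelled libraries with 1285 CPM per kb, against 62.3 CPM per kb in the control-labelled ones.

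S100a8 and S100a9 form calprotectin, an antimicrobial pair made by neutrophils and by injured keratinocytes. S100a9 had 6.30, 3.96 and 2.18 CPM in K1, K2 and K3, against 1.09, 0.481 and 0.650 CPM in C1, C2 and C3. The groups did not overlap, and the log2 fold change was 2.48 ± 0.62 (SE; adjusted p = 0.0384, edgeR). S100a8 had 1.63, 0.978 and 0.0325 CPM in K1, K2 and K3, against 0.675, 0.350 and 0.205 CPM in C1, C2 and C3 (K3 below all controls; log2 fold change 1.09 ± 1.14, SE; adjusted p = 0.618, edgeR). Only without K3 did the S100a9 call hold when 1 library was left out (edgeR adjusted p of 0.0442 to 0.125 over the 6). Of 15 neutrophil and macrophage markers, 8 were tested and 0 called in either direction by edgeR, DESeq2 or limma-voom, with 0 at an unadjusted p under 0.05. Their summed level was 65.6 to 171 CPM in knockout-labelled and 84.8 to 214 CPM in control-labelled libraries, and the neutrophil markers Ly6g and Elane were at 0 in all 6.

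Both peptidoglycan-binding genes were called, in opposite directions. Pglyrp3 (ENSMUSG00000042244, plus strand, chr3:92014583-92031582) had 6.57, 3.96 and 1.95 CPM in K1, K2 and K3, against 0.375, 0.612 and 0.239 CPM in C1, C2 and C3. Pglyrp4 (ENSMUSG00000042250, plus strand, chr3:90726906-90741517) had 0.346, 0.720 and 0.130 CPM in K1, K2 and K3, against 16.5, 14.7 and 16.4 CPM in C1, C2 and C3. Neither gene's groups overlapped. The log2 fold change was 3.34 ± 0.69 for Pglyrp3 (SE; adjusted p = 0.0177, edgeR) and -5.37 ± 0.57 for Pglyrp4 (SE; adjusted p = 0.00115, edgeR), a 41.2-fold fall. Per exon length, Pglyrp3 stood at 3.76 CPM per kb and Pglyrp4 at 0.168 CPM per kb in knockout-labelled libraries, against 0.369 CPM per kb for Pglyrp3 and 6.69 CPM per kb for Pglyrp4 in control-labelled ones. The Pglyrp3 call was lost without K1, K2, C1 or C3 (edgeR adjusted p of 0.0219 to 0.0698 over the 6 left-out libraries), and also with limma-voom, under the Xist covariate or with replicates 1 and 2 alone, while the log2 fold change stayed between 2.80 and 3.74 in all 18 alternatives.

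The Sprr genes moved most. Their summed level was 2119, 761 and 508 CPM in K1, K2 and K3, against 61.6, 66.6 and 46.4 CPM in C1, C2 and C3, a ratio of means of 19.4. Of 15 genes 9 were tested, and all 9 had a positive log2 fold change (50.03% of all genes tested did), with a median of 4.29. The 4 that rose were Sprr1a, Sprr1b, Sprr2h and Sprr2i, against 7.17% of all genes tested. In 7 of the 9 tested every knockout-labelled library lay above every control-labelled one (17.6% of all genes tested). Leaving out single libraries left 2 called Sprr genes without K2, without C1 or without C3.

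Sprr1a (ENSMUSG00000050359, minus strand, chr3:92483952-92485895), cornifin A, is also known as a gene that injured cells switch on. It had 2061, 612 and 434 CPM in K1, K2 and K3, against 59.7, 55.2 and 35.8 CPM in C1, C2 and C3. Even the lowest knockout-labelled library was several-fold above every control-labelled one, and K1 stood far above K2 and K3. The log2 fold change was 4.37 ± 0.60 (SE), a 20.6-fold rise (edgeR adjusted p = 0.00329), and without K1 it was 3.38. Sprr1a reads alone were 45.1, 18.3 and 18.3% of all reads of the 61 genes in K1, K2 and K3, against 4.79, 3.82 and 2.69% in C1, C2 and C3.

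Sprr1b (ENSMUSG00000048455, minus strand, chr3:92436809-92438789) had 39.2, 80.1 and 58.2 CPM in K1, K2 and K3, against 0.262, 5.50 and 4.58 CPM in C1, C2 and C3. The groups did not overlap, and K2, not K1, was highest. Its log2 fold change was 4.10 ± 0.81 (SE; adjusted p = 0.0147, edgeR). Without C3 the adjusted p was 0.0504, with 0.00359 to 0.0504 over the 6 left-out libraries, and with replicates 1 and 2 alone it was 0.0878.

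Sprr2 encodes a family of near relatives used in different epithelia, and all of it stayed at a low level in this sort. The sum over its 11 genes was 16.8, 64.7 and 14.4 CPM in K1, K2 and K3, against 1.69, 5.68 and 5.81 CPM in C1, C2 and C3. No knockout-labelled sum reached down to a control-labelled one. K2 was the highest library in 8 of the 11 genes.

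Sprr2h had 1.52, 5.51 and 2.63 CPM in K1, K2 and K3, against 0, 0 and 0.205 CPM in C1, C2 and C3 (log2 fold change 5.38 ± 1.23, SE; adjusted p = 0.0273, edgeR). Sprr2i had 0.588, 6.69 and 0.909 CPM in K1, K2 and K3, against 0, 0 and 0.0684 CPM in C1, C2 and C3, a total of 175 reads against 2. Reads of both were nearly absent from the control-labelled libraries. The ratio of Sprr2i counts was 87.2 (95% interval 23.8 to 725, counting error only; edgeR adjusted p = 0.0271), and without K2 it was 29.7. The Sprr2h call was lost without K2, K3, C1 or C2 (edgeR adjusted p of 0.0208 to 0.110 over the 6), and the Sprr2i call without K2, C1, C2 or C3 (0.0222 to 0.123).

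Sprr2d had 1.04, 20.8 and 4.22 CPM in K1, K2 and K3, against 0.0375, 0.917 and 0.0684 CPM in C1, C2 and C3. The groups did not overlap, but the log2 fold change of 4.70 ± 1.37 (SE) missed the threshold (edgeR adjusted p = 0.0655). Sprr2a3 had 11.4, 12.8 and 3.67 CPM in K1, K2 and K3, against 0.975, 3.71 and 5.40 CPM in C1, C2 and C3 (overlapping groups, log2 fold change 1.46 ± 0.67, SE; adjusted p = 0.224, edgeR). Its copy Sprr2a1 was listed at 0 everywhere, and 92.5% of the 100-base windows of Sprr2a1 recur in its relatives, so how reads were shared between them is uncertain. Sprr2e had 1, 66 and 13 reads in K1, K2 and K3, against 0 reads in C1, C2 and C3. It was at least 26.6-fold higher against 3 counts over the control-labelled group, and at least 6.16-fold higher without K2, which held most of its reads. Sprr2k and Sprr2j-ps likewise had no read in the control-labelled libraries, and were at least 11.6-fold and 9.63-fold higher, or at least 8.89-fold and 5.23-fold without K1. Groups overlapped for Sprr2f, with 0, 119 and 17 reads in K1, K2 and K3, against 18, 2 and 2 in C1, C2 and C3 (edgeR adjusted p = 0.328). They also overlapped for the untested Sprr2g, with 6, 60 and 10 reads in K1, K2 and K3, against 0, 13 and 0 in C1, C2 and C3. Sprr2b had groups apart but was not called (edgeR adjusted p = 0.112). Sprr4 missed narrowly, with 2.42, 4.01 and 0.584 CPM in K1, K2 and K3, against 0, 0.218 and 0.137 CPM in C1, C2 and C3 (log2 fold change 4.27 ± 1.17, SE; adjusted p = 0.0530, edgeR). Sprr3, a gene of the oesophagus, had 13 reads in the knockout-labelled and 0 in the control-labelled libraries.

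**Figure D2:**
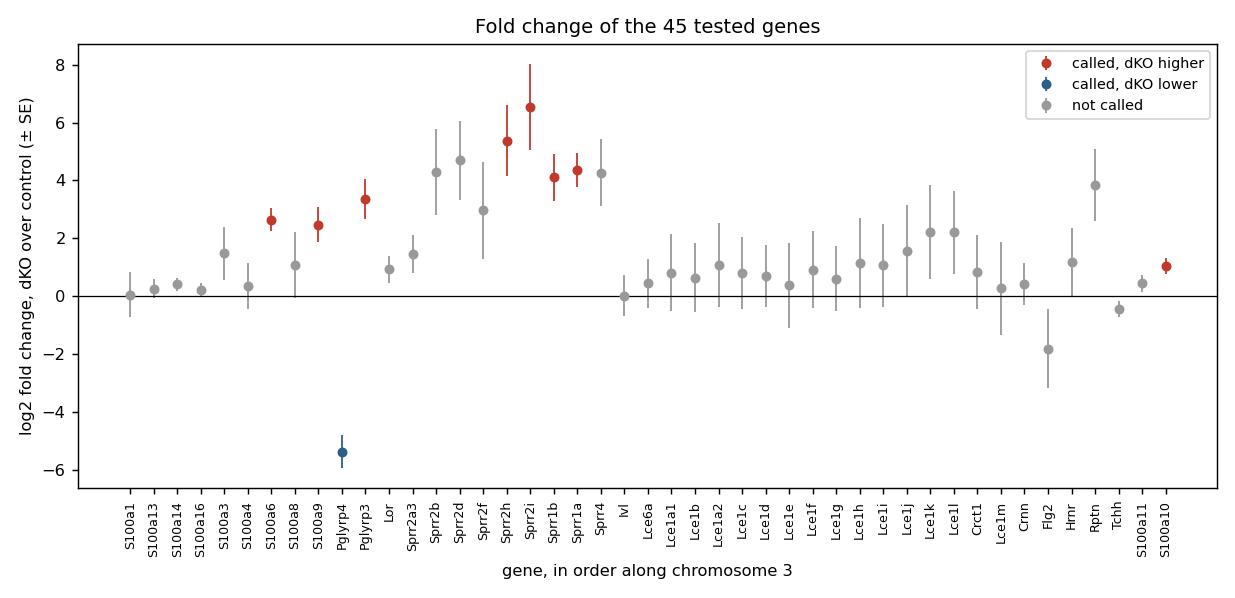
Log2 fold change, knockout-labelled over control-labelled libraries, of the 45 tested genes in their order along chromosome 3, with the SE of the model. The called genes sit in the S100a and Sprr stretches and at Pglyrp3 and Pglyrp4, and the Lce1 genes lie above 0 with long error bars.

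The Lce1 genes differed more between replicates than between groups. The 14 Lce1 genes summed to 1.94, 144 and 44.4 CPM in K1, K2 and K3, against 3.94, 67.2 and 35.6 CPM in C1, C2 and C3. In all 14, K1 and C1 were the lowest 2 libraries and K2 was the highest. Their log2 fold changes were 0.27 to 2.21, with 0 called (edgeR adjusted p of 0.389 to 0.944), 0 at an unadjusted p under 0.05, and 0 called by DESeq2 or limma-voom.

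Lce1c, among the best covered of them, had 0.173, 21.6 and 6.59 CPM in K1, K2 and K3, against 0.825, 10.6 and 4.75 CPM in C1, C2 and C3. Lce1b had 0.208, 16.0 and 6.14 CPM in K1, K2 and K3, against 0.637, 9.44 and 4.17 CPM in C1, C2 and C3. Lce1a1 had 0, 12.5 and 5.62 CPM in K1, K2 and K3, against 0.637, 4.41 and 5.16 CPM in C1, C2 and C3. In all 3, K2 was highest and replicate 1 of both groups lay near 0, while the order of K3, C2 and C3 differed between them. Lce1m, which lies apart from the other Lce1 genes, had 0, 11.4 and 5.62 CPM in K1, K2 and K3, against 0, 8.34 and 5.74 CPM in C1, C2 and C3. Without K2 the log2 fold change turned below 0 for each of these 4 genes, at -0.66, -0.58, -0.27 and -0.74 for Lce1c, Lce1b, Lce1a1 and Lce1m. Lce6a, the only Lce6 gene, had a log2 fold change of 0.45 (edgeR adjusted p = 0.805).

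The 6 Lce3 genes, relatives linked in human skin to barrier repair, fell under the count filter. They summed to 0.104, 30.0 and 4.90 CPM in K1, K2 and K3, against 0, 0.524 and 0.445 CPM in C1, C2 and C3. K2 held most of these reads and K1 almost none, so the groups overlapped. Lce3b had 89 reads in the knockout-labelled and 0 in the control-labelled libraries, at least 29.6-fold higher against 3 counts over the group and at least 6.16-fold without K2. Lce3d had 100 reads against 1 (ratio of counts 99.6, 95% interval 17.5 to 3973) and Lce3f had 66 against 1 (65.7, 11.4 to 2635), and without K2 these ratios were 40.9 and 35.6. Between 24.1 and 43% of the 100-base windows of Lce3c, Lce3d, Lce3e and Lce3f recur in another Lce3 gene, so their split among these 4 is uncertain. With K1 left out, or with replicates 2 and 3 alone, 5 Lce3 genes were called higher, and DESeq2 called 4 over all libraries.

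Crct1, a small gene beside Lce1m, also had its highest value in K2 and its lowest in K1 and C1, with 0.277, 13.7 and 4.84 CPM in K1, K2 and K3, against 0.112, 5.94 and 4.41 CPM in C1, C2 and C3 (log2 fold change 0.84, edgeR adjusted p = 0.755). Kprp, a keratinocyte gene inside the same span that is not a member by symbol, did so too, with 0.623, 148 and 34.9 CPM in K1, K2 and K3, against 2.89, 59.9 and 33.2 CPM in C1, C2 and C3. Of 14 other coding genes annotated within the span, 7 had a row and 3 were tested. None of the 3 was called by edgeR, DESeq2 or limma-voom, and 0 had an unadjusted p under 0.05.

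**Figure D3:**
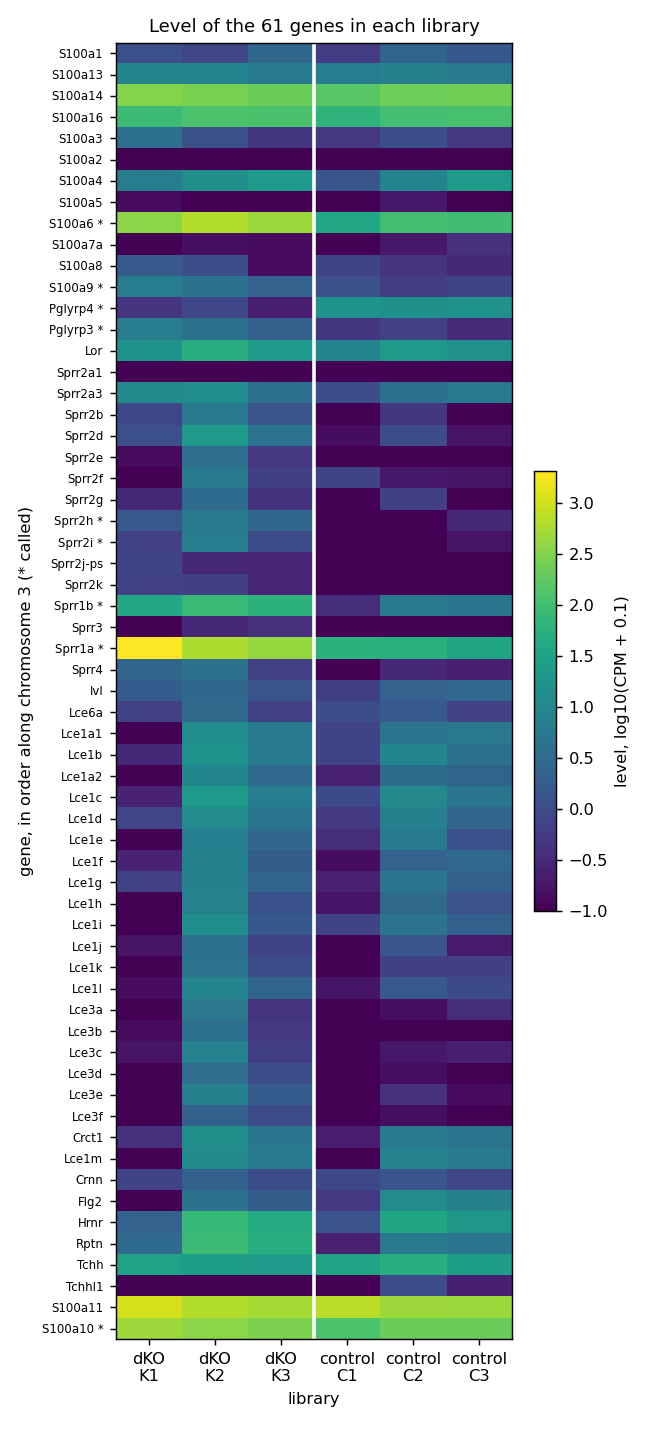
Level of each of the 61 genes, as log10(CPM + 0.1), in the knockout-labelled libraries (left) and the control-labelled libraries (right), in order along chromosome 3, with called genes starred. The Lce1 block is dark in K1 and C1 and brightest in K2, while Sprr1a and S100a6 are bright in all 3 knockout-labelled libraries.

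Lor and Ivl, the classical envelope proteins, were not called. Lor had 16.2, 49.8 and 21.3 CPM in K1, K2 and K3, against 8.77, 21.8 and 15.2 CPM in C1, C2 and C3, so that K1 and K3 lay below C2 (log2 fold change 0.93 ± 0.47, SE; adjusted p = 0.269, edgeR). With an offset for GC content and length, which shifts the median of all genes by -0.13, the Lor value was -0.33. Ivl had 1.70, 2.73 and 1.20 CPM in K1, K2 and K3, against 0.562, 2.14 and 2.84 CPM in C1, C2 and C3. Its groups overlapped fully, at a log2 fold change of 0.02 ± 0.70 (SE; adjusted p = 0.993, edgeR).

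Of the 6 fused-type S100 genes 5 were tested. None was called (edgeR), 1 had an unadjusted p under 0.05, and DESeq2 and limma-voom called 0. That 1 gene was Rptn (ENSMUSG00000041984, plus strand, chr3:93393699-93399442), with 3.18, 89.6 and 48.6 CPM in K1, K2 and K3, against 0.150, 5.24 and 4.45 CPM in C1, C2 and C3. K2 and K3 lay far above every control-labelled library, whereas K1 lay between C1 and C3. The log2 fold change was 3.85 ± 1.23 (SE; adjusted p = 0.0888, edgeR). With replicates 2 and 3 alone the same test gave an adjusted p of 3.31e-04, and over the 18 alternatives it ran from that to 0.299.

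Hrnr had 2.21, 78.0 and 45.8 CPM in K1, K2 and K3, against 1.16, 34.8 and 19.2 CPM in C1, C2 and C3. K2 and K3 lay above every control-labelled library, but K1 lay below C2 and C3 (log2 fold change 1.19 ± 1.18, SE; adjusted p = 0.596, edgeR). With replicates 2 and 3 alone it was called higher (edgeR adjusted p = 0.0421, in a range of 0.0198 to 0.916 over the 18 alternatives). Flg2, a filaggrin relative, had 0, 3.91 and 1.75 CPM in K1, K2 and K3, against 0.412, 11.9 and 7.38 CPM in C1, C2 and C3. Flg2 was the only tested fused-type gene besides Tchh with a negative log2 fold change, -1.81 ± 1.37 (SE; adjusted p = 0.470, edgeR), and it was called lower with replicates 2 and 3 alone (edgeR adjusted p = 0.0404, in a range of 0.0404 to 0.760). Tchh, of the inner root sheath, had 30.6, 25.8 and 23.5 CPM in K1, K2 and K3, against 32.5, 50.2 and 26.3 CPM in C1, C2 and C3. K1 lay among the controls, and the log2 fold change was -0.45 ± 0.27 (SE; adjusted p = 0.361, edgeR). Crnn, cornulin, stayed at 0.657 to 2.06 CPM in knockout-labelled and 0.684 to 1.27 CPM in control-labelled libraries. Tchhl1 had 0 reads in K1, K2 and K3, against 0, 20 and 4 reads in C1, C2 and C3, so the groups overlapped. Against 3 counts over the group it was at least 8.03-fold lower, and without C2 at least 1.89-fold lower.

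Members with low values in K1 and C1 were thus of several families. The suprabasal keratin Krt10 went with them, at 322, 1505 and 1599 CPM in K1, K2 and K3, against 593, 2055 and 1253 CPM in C1, C2 and C3. The 10 suprabasal markers summed to 1954, 4635 and 4883 CPM in K1, K2 and K3, against 2475, 5618 and 3888 CPM in C1, C2 and C3, with K1 and C1 lowest. Single markers differed from this sum. Of the 10, 2 were called higher (Krtdap and Elovl4) and 0 lower, against 7.17% and 2.98% of all genes tested. Their median log2 fold change was 0.96. Krtdap had 820, 1079 and 974 CPM in K1, K2 and K3, against 367, 541 and 568 CPM in C1, C2 and C3. The part of suprabasal cells in the Lce and fused-type values was not tested. Sprr1a did the opposite, with K1 and C1 the highest libraries of their groups. Serpinb2, an inhibitor of plasminogen activators found in envelopes, was also highest in K1 but lowest in C1. It had 523, 93.5 and 63.5 CPM in K1, K2 and K3, against 11.6, 34.9 and 25.2 CPM in C1, C2 and C3.

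**Figure D4:**
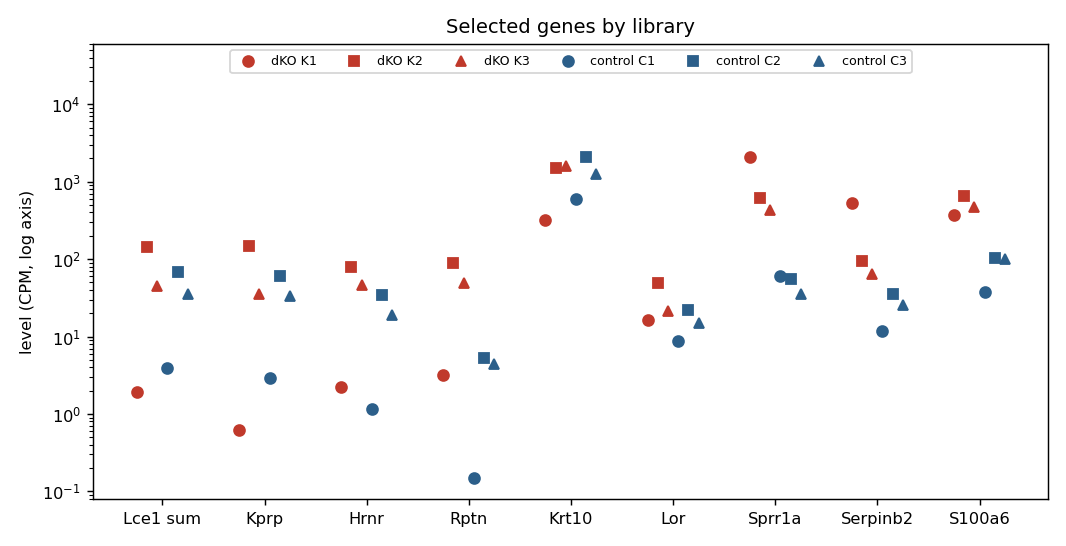
Level in CPM (log axis) of the Lce1 sum and of single genes in each library, knockout-labelled in red and control-labelled in blue. K1 and C1 are the lowest libraries for Lce1, Kprp and Krt10, whereas Sprr1a and Serpinb2 are highest in K1 and S100a6 separates the groups in every library.

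Other cell types of skin were looked at through their markers. Beside the counts for each list, 7.17% of all genes tested were called higher and 2.98% lower. All 4 tested Merkel cell markers, of 8 listed, were called higher (Krt18, Isl1, Sox2 and Piezo2), and the 8 summed to 104, 55.8 and 54.3 CPM in K1, K2 and K3, against 9.60, 4.85 and 10.1 CPM in C1, C2 and C3. Isl1 and Sox2 had no read in the control-labelled libraries and so passed the count filter only through the other group. Among the untested, Atoh1 averaged 0.0839 CPM in knockout-labelled and 0.127 CPM in control-labelled libraries. Krt8 averaged 0.791 CPM under the knockout label and 0.468 CPM under the control label, and Rab3c was at 0 in all 6. Krt20 had a higher mean under the knockout label, 0.857 CPM, than under the control label, 0.0893 CPM. It was highest in K1 (2.18 CPM), whereas K3 (0.0325 CPM) lay below C2 and C3. The part of Merkel cells in the Sprr and S100a values was not tested. Of 8 basal keratinocyte markers 3 were lower, and the basal sum was 27530 to 31120 CPM in knockout-labelled and 32360 to 47060 CPM in control-labelled libraries. The 3 lower genes were Col17a1, Trp63 and Lamb3. The basal sums do not overlap between the groups. Krt5, their largest part, does overlap, with 20120 CPM in K1 and 18570 CPM in C1. It was not called (log2 fold change -0.37, edgeR adjusted p = 0.350).

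Envelope genes outside the locus moved both ways. Of 24 genes tested, 5 rose and 2 fell, with a median log2 fold change of 0.25. Over all genes tested, 7.17% rose and 2.98% fell. Transglutaminase 1 (Tgm1), which fixes envelope proteins at the membrane, had 108, 47.9 and 44.3 CPM in K1, K2 and K3, against 15.6, 17.6 and 11.8 CPM in C1, C2 and C3 (log2 fold change 2.15 ± 0.37, SE; adjusted p = 0.00841, edgeR). Every knockout-labelled library was above every control-labelled one. The other transglutaminases of this list fell. Tgm3 had 6.23, 3.40 and 3.80 CPM in K1, K2 and K3, against 23.6, 37.0 and 30.0 CPM in C1, C2 and C3 (log2 fold change -2.75 ± 0.33, SE; adjusted p = 0.00172, edgeR). Tgm5 had 0.104, 1.39 and 0.0974 CPM in K1, K2 and K3, against 35.8, 17.9 and 42.0 CPM in C1, C2 and C3. It was near 0 in K1 and K3 and so passed the count filter through the control-labelled libraries. The cysteine protease inhibitor Cstb rose as well, with a log2 fold change of 1.11 ± 0.17 (SE; adjusted p = 0.00493, edgeR). The others that rose were Krtdap (log2 fold change 0.96), Cst6 (2.59) and Serpinb2 (3.25), and the list held 3 higher genes without K2, K3, C1 or C2 and 2 without C3.

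Enzymes that process filaggrin and shed the envelope were also followed. Of 17 tested, 5 rose and 0 fell, against 7.17% and 2.98% of all genes tested. The median log2 fold change was 0.61, and DESeq2 and limma-voom called 0 lower. Pcsk6, a furin-like protease, had 36.5, 26.0 and 28.5 CPM in K1, K2 and K3, against 3.90, 2.14 and 1.64 CPM in C1, C2 and C3 (log2 fold change 3.57 ± 0.38, SE; adjusted p = 0.00115, edgeR). Its groups lay far apart. Klk7, a kallikrein that cleaves desmosomes, had a log2 fold change of 2.27 ± 0.33 (SE; adjusted p = 0.00413, edgeR). The other 3 that rose were St14 (1.04), Asprv1 (1.53) and Klk5 (1.43), and the list held 2 without K2 and 3 without C3.

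Among 36 transcription and chromatin factors of epidermal differentiation, 7 rose and 4 fell, against 7.17% and 2.98% of all genes tested. The median log2 fold change was -0.14. Ehf, an ETS factor of epithelia, had 37.4, 49.1 and 34.3 CPM in K1, K2 and K3, against 4.54, 3.98 and 2.29 CPM in C1, C2 and C3 (log2 fold change 3.48 ± 0.32, SE; adjusted p = 0.000782, edgeR). Grhl3, which drives barrier genes, had 175, 218 and 209 CPM in K1, K2 and K3, against 29.6, 65.1 and 67.5 CPM in C1, C2 and C3 (log2 fold change 1.89 ± 0.31, SE; adjusted p = 0.00652, edgeR). In both genes the groups were well apart. Maf, Elf3, Zfp750, Tfap2c and Grhl1 rose too, by log2 fold changes of 1.40, 3.02, 0.93, 1.11 and 1.34. Ahr, Satb1, Trp63 and Pou2f3 were lower, at log2 fold changes of -1.46, -1.38, -0.79 and -1.01. With replicates 1 and 2 alone, 2 of this list were higher and 0 lower. Without C3 4 were higher, and without K2 or without C2 2 were lower.

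The list of factors also held the genes whose products bind the AP-1 motif. Of 7 Fos and Jun family genes, edgeR and limma-voom called 0 and 3 had an unadjusted p under 0.05, all lower, while DESeq2 called 2 lower. Jun had 277, 256 and 149 CPM in K1, K2 and K3, against 950, 460 and 339 CPM in C1, C2 and C3. Those groups did not overlap (log2 fold change -1.36 ± 0.39, SE; adjusted p = 0.0636, edgeR). Fosl1 went the other way, with 60.1, 3.96 and 4.68 CPM in K1, K2 and K3, against 14.6, 2.88 and 3.59 CPM in C1, C2 and C3. Its log2 fold change was 1.71 ± 1.06 (SE; adjusted p = 0.373, edgeR). None of 7 genes for binding partners and receptors of S100 proteins was called by edgeR, DESeq2 or limma-voom, and 0 had an unadjusted p under 0.05. The most highly expressed of them, Ahnak, had a log2 fold change of 0.45 (edgeR adjusted p = 0.274).

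The families differed in promoter letters, which the choice by symbol did not use. RefSeq held a promoter for 52 of the 61 genes. In the 250 bases before the start, the AP-1 motif TGANTCA was found, on either strand, in 9 of 13 Sprr promoters (69.2%), 4 of 6 fused-type promoters (66.7%), 1 of 11 S100a promoters (9.09%) and 0 of 20 Lce promoters, against 4.73% of the promoters of tested genes and 6.87% of all 27025. The box TATAAA, on either strand, was in 10 of 13 Sprr and 4 of 20 Lce promoters, against 6.78% of tested genes. Of the 16 members with an AP-1 match, Sprr1a, Sprr1b, Sprr2h and Sprr2i rose. Lor, Ivl, Sprr2b, Sprr2d, Sprr2f, Crnn, Flg2, Rptn and S100a11 have a match as well and were not called. Sprr2e, Sprr2k and Tchhl1 were not tested. S100a6 and S100a9, the other members that rose and have a promoter in RefSeq, have no match. CpG pairs were few, with a median of 1 per window over the members, against 15 over tested genes and 17 over all genes called higher. Close relatives share promoter letters, so these counts are not independent, and a match is no evidence that a factor binds.

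**Figure D5:**
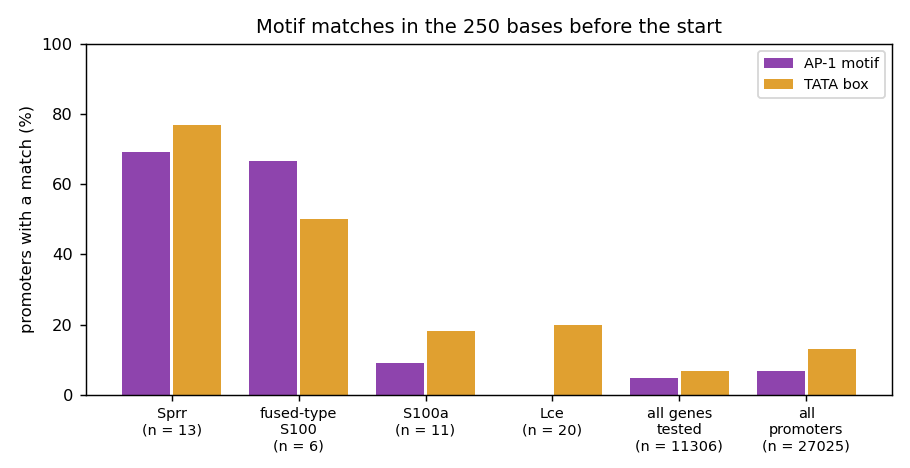
Share of promoters, in percent, with a match to the AP-1 motif (purple) or the TATA box (orange) in the 250 bases before the start, by family and for all tested genes and all promoters. Sprr and fused-type S100 promoters carry AP-1 matches at 69.2 and 66.7%, and Lce promoters carry none.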

How the data were processed

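RNA sequencing covered 3 knockout-labelled and 3 control-labelled libraries of sorted newborn mouse epidermis. The deposited files hold whole-number read counts per gene symbol, made by the authors. Per the submitters' processing notes, HTSeq 0.6.1, DESeq2 1.6.3, TopHat2 2.0.13 and Cufflinks 2.2.1 were used on the mm10 genome. The annotation and the strand setting are not given in the sources used here, and overlapping genes may share reads.

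All genes were fitted with edgeR 4.0.16 in R 4.3.3: TMM scaling, filterByExpr (minimum count 10, minimum total 15), a two-sided quasi-likelihood F test without covariates, Benjamini-Hochberg adjustment over 14890 genes, a threshold of 0.05 and a prior count of 0.125. The script was tested on simulated counts. Alternatives were other scalings and filters, DESeq2 1.42.0, limma-voom (limma 3.58.1), a replicate block, an Xist covariate, an offset for GC content and length (known for 97.8% of tested genes), removal of the 20 most counted genes, replicate subsets and leaving out each library. Leaving the library with most reads out of fold bounds and count ratios was added after seeing the data. No pair of libraries was a copy (smallest chi-square per degree of freedom 28.6). Replicate numbers did not pair libraries by the rule that every pair's deviations correlate over 0.1 (0.175, 0.228 and 0.0773).

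Genes named are members called, up to 4 of the highest mean CPM in each subfamily, and the defining genes Lor, Ivl, Hrnr, Tchh and Rptn. From lists outside the locus they are the called members with the smallest p. Other named genes were picked with their values in view. The members and lists were chosen with earlier results of these data known. Shared sequence is the share of 100-base windows of a gene's exons (GENCODE M21) that occur in another gene. Fold bounds use 3 counts over a group, and 95% intervals of count ratios and these floors cover counting error only. Figures used matplotlib 3.10.9.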

Additional observations from a re-analysis of the deposited data

How the results depend on the processing

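The 8 higher members became 13 with no count filter, 17 with DESeq2, 5 with limma-voom, 3 with Xist as a covariate, 3 from replicates 1 and 2 alone and 18 with replicates 2 and 3 alone, and ran from 3 to 13 when each library was left out. The 1 lower member became 2 with replicates 2 and 3 alone and was 1 in every leave-one-out fit. Over all genes, the 1068 higher and 444 lower calls became 1683 and 877 with DESeq2, 636 and 174 with Xist as a covariate, 354 and 85 for replicates 1 and 2 alone, and 1633 and 1061 with replicates 2 and 3 alone. Leaving out each library gave 630 to 957 higher and 174 to 436 lower. The offset for GC content and length turned the split into 899 higher and 922 lower and shifted the median log2 fold change of all genes by -0.13, while 9 members were higher and 1 lower.

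Among the members followed through the settings, the sign turned for 7, none of them called. Members outside these also turned, among them S100a1. It was -0.67 with replicates 1 and 2 alone and -0.14 with replicates 2 and 3 alone. Ivl was -0.294 under the Xist covariate, -0.0641 with the GC and length offset, -0.35 with replicates 2 and 3 alone and -0.42 to 0.47 without single libraries. Lor was -0.33 with the offset. With limma-voom, Lce1a1, Lce1b, Lce1c and Lce1m were -1.49, -0.25, -0.42 and -0.12, and Lce1m was -0.0496 with the offset. Without single libraries Lce1a1 ran from -0.27 to 1.41, Lce1b from -0.58 to 1.62, Lce1c from -0.66 to 1.75, Lce1m from -0.74 to 0.97 and Crct1 from -0.44 to 1.46. The cause was not tested.

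With the replicate number as a block, 11 members were higher and 1 lower, and over all genes 1016 were higher and 435 lower. The block added Sprr2b, Sprr2d, Hrnr and Rptn and dropped S100a10. It turned Lce1a1 to -0.16, Lce1e to -0.0177 and Lce1i to -0.47. Each library correlated best with its own number, a hint from the data and not the design. Over all settings the envelope list outside the locus held 1 to 10 higher and 2 to 5 lower genes, the filaggrin-processing list 2 to 7 higher and 0 lower, and the regulators 2 to 10 higher and 0 to 9 lower. The 6 Lce3 genes and 5 Sprr2 genes did not pass the count filter and have no test.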

Other observations

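Genes listed as hair follicle markers stood at very different levels. Krt17, the highest of the list, had 740 to 940 CPM in knockout-labelled and 362 to 679 CPM in control-labelled libraries. Of 13 tested, 2 were lower, against 2.98% of all genes tested. Both encode keratins of the inner root sheath, the layer where trichohyalin is made. Krt25 had 0 CPM in K1, K2 and K3, against 4.31, 14.1 and 4.79 CPM in C1, C2 and C3 (edgeR adjusted p = 0.00329). Krt71 had 0.173, 1.08 and 0.390 CPM in K1, K2 and K3, against 4.09, 10.8 and 3.35 CPM in C1, C2 and C3 (log2 fold change -3.50, edgeR adjusted p = 0.0268). In both genes the groups were apart, whereas Tchh overlapped between them. Krt25 had no read in the knockout-labelled libraries and so passed the count filter only through the control-labelled ones. Krt71 was low in the knockout-labelled libraries too. The count of 2 lower genes thus describes the tested genes and supports nothing about the whole list. The hair follicle list as a whole had a median log2 fold change of 0.50, with 4 genes higher and 2 lower at an unadjusted p under 0.05. Called higher were 0 by edgeR, 2 by DESeq2 and 1 by limma-voom.

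None of 6 melanocyte, 8 fibroblast and 6 endothelial markers tested was called by edgeR or limma-voom, with 3, 2 and 0 at an unadjusted p under 0.05, and DESeq2 called 2 melanocyte markers higher. The 8 melanocyte markers summed to 34.1, 19.8 and 31.3 CPM in K1, K2 and K3, against 19.1, 17.2 and 14.6 CPM in C1, C2 and C3. Those sums did not overlap, and the median log2 fold change of the 6 tested was 1.06. Of 5 tested Langerhans and T cell markers, 1 rose, against 7.17% of all genes tested. It was Thy1, with 95.3, 79.5 and 69.8 CPM in K1, K2 and K3, against 24.3, 50.5 and 33.0 CPM in C1, C2 and C3 (log2 fold change 1.18, edgeR adjusted p = 0.0317). The T cell genes Cd3g and Cd3d were at 0 in all 6 libraries.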
